A study of Mus musculus with 3 samples.

Results

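The 31 genes described here encode enzymes and regulators of cholesterol and fatty acid synthesis. They were chosen by name from these pathways, and all 31 had a probe set with a single gene symbol on the array, out of 19938 genes measured in that way. Distal colon was taken on day 7 from adult male BALB/c littermates in 3 groups. IL-4Rα-/- colitis mice carried the Il4ra null allele in every cell and drank 3% dextran sulfate sodium (DSS), a polymer that injures the colonic epithelium. WT colitis mice drank the same DSS, and WT normal mice drank water. The RNA of each group was combined before hybridisation, from 6 IL-4Rα-/- colitis, 3 WT colitis and 4 WT normal mice, so that each group is represented by 1 array and no mouse can be told from another. An untreated IL-4Rα-/- group was not analysed here, so genotype and response to DSS cannot be told apart. With 1 array in each group the differences have no replicate error and no p-value, and the number of arrays limits their precision. A bulk array cannot distinguish fewer cells of a type from less RNA in each cell.

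Cells make cholesterol from acetyl-CoA through the mevalonate pathway, which ends in squalene, and then through the ring closure and trimming of lanosterol. Fatty acids are built from the same acetyl-CoA, which ATP citrate lyase releases from citrate in the cytosol, and are then lengthened by elongases and desaturated by Scd and Fads enzymes. Most of these genes are targets of the sterol regulatory element binding proteins (SREBPs), which the Insig proteins hold in the endoplasmic reticulum when sterols are plentiful. The colonic epithelium renews itself continuously and needs both products for its membranes.

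The values are log2 signals as deposited. The array medians were 4.11 in IL-4Rα-/- colitis, 4.18 in WT colitis and 4.11 in WT normal. Olfactory and vomeronasal receptor probe sets, taken as a guide to background, had a 95th percentile of 3.5, and each of the 31 genes lay above a log2 signal of 4 on every array. The targeted gene Il4ra had 4.76 in IL-4Rα-/- colitis, 6.63 in WT colitis and 5.69 in WT normal. The paper's quantitative PCR found its mRNA depleted in the colon of untreated IL-4Rα-/- mice. A signal a little above 4 therefore need not mean expression. Of 13 measured markers of colonic epithelium, 0 were below a log2 signal of 4 on any array, and their median was 10.16, 10.13 and 10.07 on the IL-4Rα-/- colitis, WT colitis and WT normal arrays. The pooled mice differed in severity, with body weights of 95.1 to 100.8% of the initial weight in IL-4Rα-/- colitis, 78.0 to 83.8% in WT colitis and 97.6 to 104.0% in WT normal. Their disease activity index was 0 to 3, 3 to 4 and 0 in the same order of groups. Body weight and the index thus differed between the pools compared below, and their part in the array differences was not tested.

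DSS colitis in WT mice went with lower signals for most of the 31 genes. In WT colitis 23 of the 31 were lower than in WT normal by any amount, 4 were higher and 4 had the same value, whereas over all genes 12.0% were lower and 35.8% higher. More than 1.5-fold lower were 9 genes, or 29.0%, against 1.08% of all genes. They were Fads2, Acly, Scd2, Sqle, Fdps, Dhcr7, Lss, Fasn and Nsdhl. More than 1.5-fold higher were Me1 and Scd1, or 6.45%, against 4.11% of all genes. Beyond 2-fold lay Fads2 on the lower side (background 0.456%) and Me1 on the higher side (background 1.16%). The median log2 difference over the 31 genes was -0.33, with a median of 0 over all genes. Among the 9934 genes whose mean signal was above the median, which include all 31, 17.9% were lower by any amount and 1.92% by more than 1.5-fold.

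**Figure D1:**
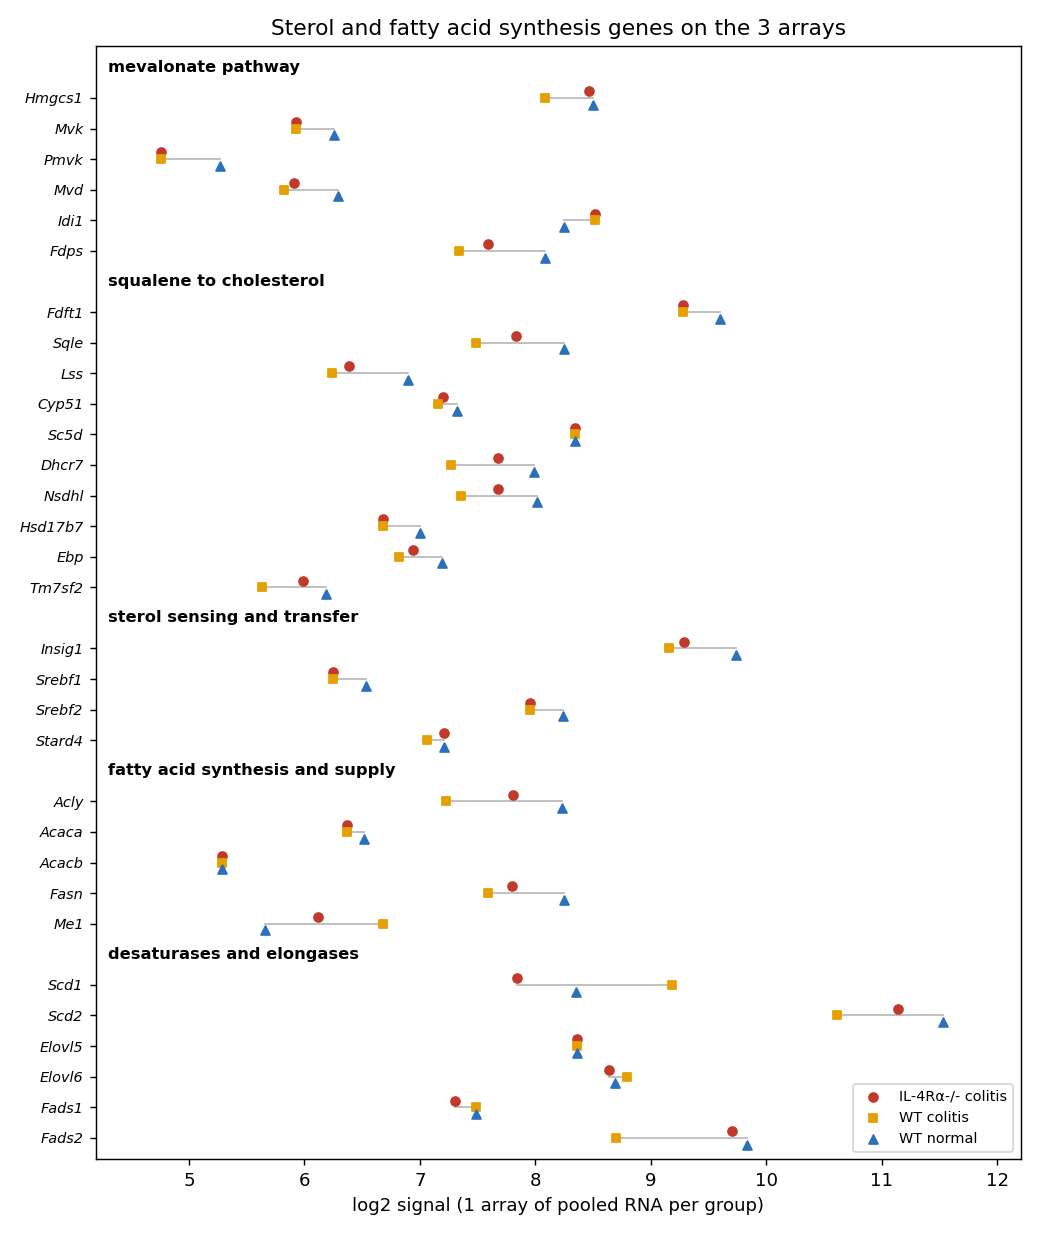
Log2 signal (x axis) of each of the 31 genes on the IL-4Rα-/- colitis, WT colitis and WT normal arrays, 1 point per array, grouped by role, with a grey line over the range of the 3 points. In most rows the WT normal point lies farthest to the right, as for Fads2 (9.70, 8.70 and 9.83), while Me1 (6.12, 6.68 and 5.66) and Scd1 (7.84, 9.18 and 8.35) have their highest point in WT colitis.

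Of the 6 genes of the mevalonate pathway, 5 were lower and 1 was higher in WT colitis relative to WT normal, with a median log2 difference of -0.45. Fdps, farnesyl diphosphate synthase, had a log2 signal of 7.34 in WT colitis, against 8.08 in WT normal, 1.67-fold lower. Pmvk, phosphomevalonate kinase, had 4.76 and 5.27, and its log2 difference of -0.51 was within 1.5-fold. Hmgcs1, which condenses acetyl-CoA and acetoacetyl-CoA into HMG-CoA, had 8.08 in WT colitis and 8.50 in WT normal. These 3 genes were thus lower in the WT colitis pool, by unequal amounts. Mvk and Mvd, mevalonate kinase and mevalonate diphosphate decarboxylase, differed by -0.33 and -0.47. Idi1, isopentenyl diphosphate isomerase, stood apart from its neighbours in the pathway, with a log2 difference of 0.27 on its brighter probe set and 0.28 on the other.

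The 10 genes from squalene to cholesterol had a median log2 difference of -0.47, with 9 lower, 0 higher and 1, Sc5d, the same on all arrays. Sqle, squalene epoxidase, had a log2 signal of 7.49 in WT colitis, against 8.25 in WT normal, 1.69-fold lower. Dhcr7, the last reductase of cholesterol synthesis, had 7.27 and 7.99, 1.65-fold lower. Lss, which closes the sterol rings, had 6.24 and 6.90, 1.58-fold lower. The sterol dehydrogenase Nsdhl, which takes part in removing methyl groups from the ring, had 7.36 in WT colitis and 8.01 in WT normal. With an offset of 32 added on the linear scale Lss (-0.49) and Nsdhl (-0.56) lay within 1.5-fold, and Sqle and Dhcr7 beyond it. Tm7sf2, a sterol reductase, had 5.63 in WT colitis and 6.19 in WT normal, a log2 difference of -0.56 and within 1.5-fold. Fdft1, Cyp51, Hsd17b7 and Ebp had log2 differences of -0.37 to -0.16. For Fdft1, squalene synthase, that value is -0.32 on its brighter probe set and the other probe set gave -0.64, which is beyond 1.5-fold.

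Among the 4 regulators and carriers, all had lower signals in WT colitis, but 0 passed 1.5-fold. Insig1, the SREBP retention protein that is itself an SREBP target, had a log2 signal of 9.16 in WT colitis, against 9.74 in WT normal, 1.49-fold lower. Srebf1 and Srebf2, which encode the SREBPs, differed by -0.28 and -0.29, and the sterol carrier Stard4 by -0.15. Aligning the array medians moved every log2 difference of WT colitis minus WT normal down by 0.07. Insig1 and Tm7sf2 then also lay beyond 1.5-fold.

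Of 5 genes of fatty acid synthesis and supply, 3 were lower and 1 was higher in WT colitis. Acly, ATP citrate lyase, had a log2 signal of 7.23 in WT colitis, against 8.23 in WT normal, 2.0-fold lower, and 93 genes, itself included, were at least as far down. Fasn, fatty acid synthase, had 7.59 and 8.25, 1.58-fold lower, and with the offset of 32 its log2 difference of -0.58 was just within 1.5-fold. Of the acetyl-CoA carboxylases, which act between these enzymes, Acaca had a log2 difference of -0.15 and Acacb had an identical value on all arrays. Me1, malic enzyme, which supplies NADPH for fatty acid synthesis, went the other way, with 6.68 in WT colitis and 5.66 in WT normal, 2.03-fold higher. Its other probe set gave a smaller log2 difference of 0.59.

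The 6 desaturases and elongases were divided, with 2 lower, 2 higher and 2 the same in WT colitis, and a median log2 difference of 0. Fads2, the delta-6 desaturase of polyunsaturated fatty acids, had a log2 signal of 8.70 in WT colitis, against 9.83 in WT normal, 2.19-fold lower and the lowest difference of the 31 genes. Scd2, a stearoyl-CoA desaturase, had 10.61 and 11.53, 1.89-fold lower. Scd1, of the same family and function, had 9.18 in WT colitis and 8.35 in WT normal, 1.78-fold higher. The pair of desaturases that make monounsaturated fatty acids thus differed in opposite directions. The delta-5 desaturase Fads1 and the elongases Elovl5 and Elovl6 had log2 differences of 0, 0 and 0.10.

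**Figure D2:**
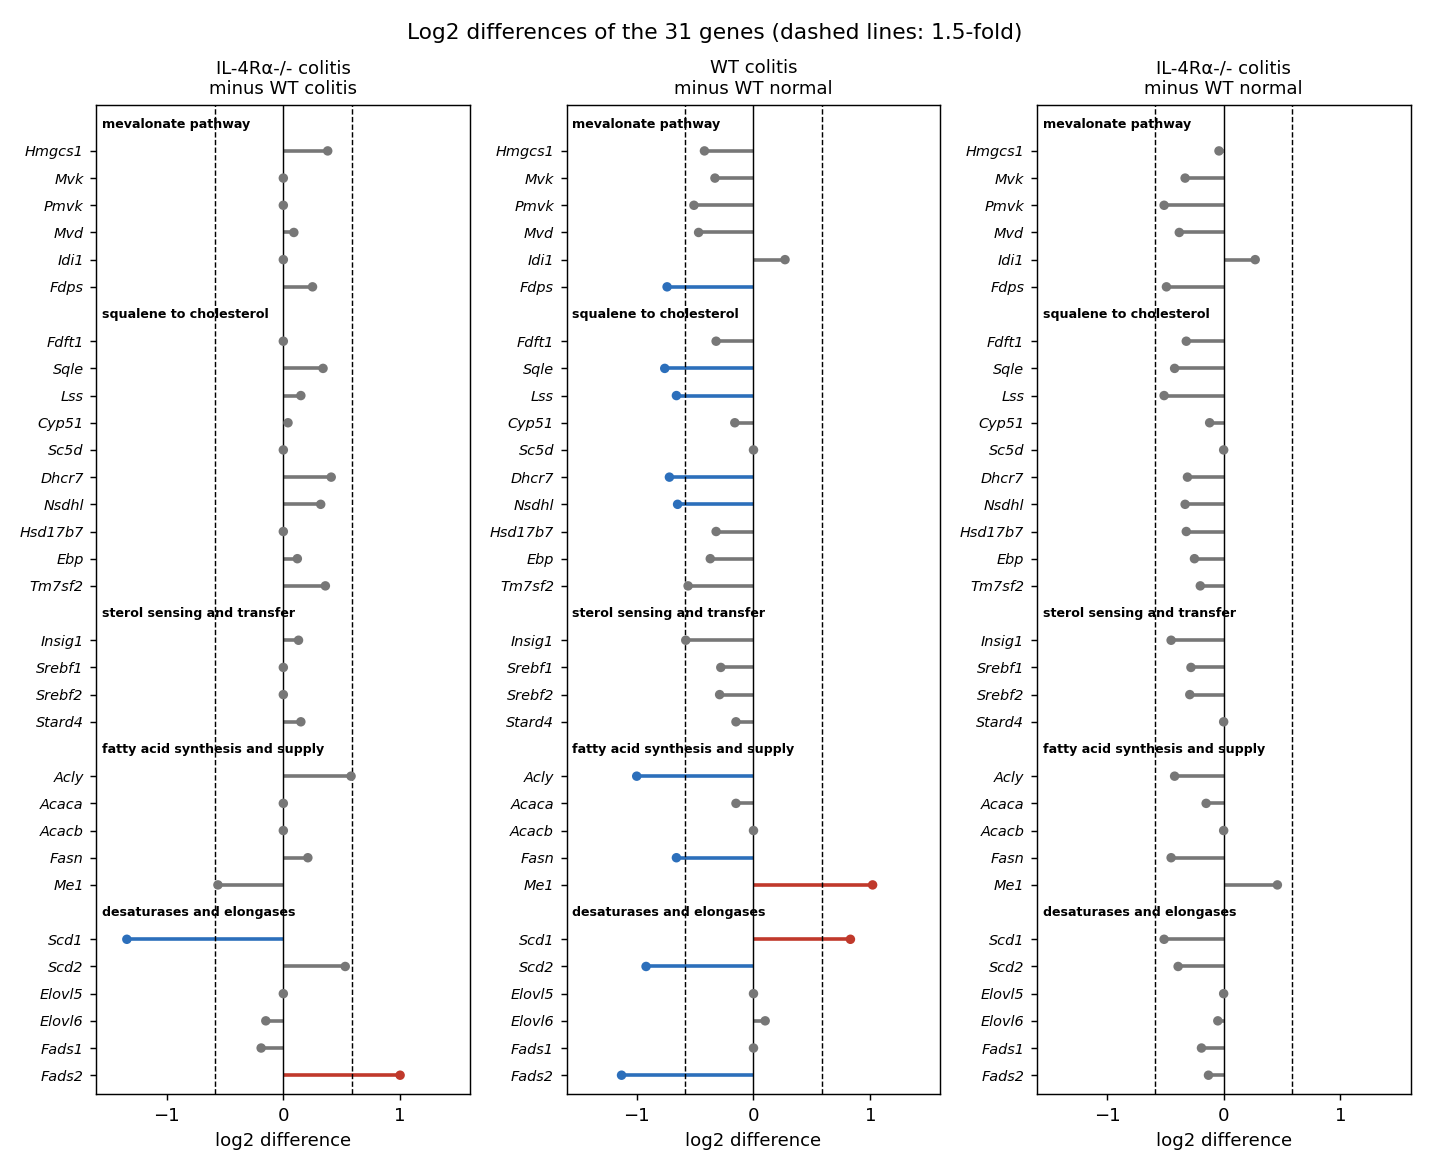
Log2 difference (x axis) of each of the 31 genes in 3 comparisons, 1 panel each, with dashed lines at 1.5-fold and coloured points beyond them (blue lower, red higher). In the panel of WT colitis minus WT normal 9 genes lie beyond the lower line and Me1 and Scd1 beyond the upper one, in IL-4Rα-/- colitis minus WT colitis Scd1 (-1.34) and Fads2 (1.00) do, and in IL-4Rα-/- colitis minus WT normal 0 genes do.

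In IL-4Rα-/- colitis 16 of the 31 genes were higher than in WT colitis by any amount, or 51.6%, 4 were lower, or 12.9%, and 11 had the same value, against 10.4% of all genes higher and 37.3% lower. Beyond 1.5-fold there was 1 gene on each side, Fads2 higher (3.23% of the 31 genes, background 0.687%) and Scd1 lower (3.23%, background 3.33%). Aligning the array medians moved every gene of this comparison up by 0.07, after which 3 of the 31, Fads2, Acly and Scd2, were more than 1.5-fold higher (0.888% of all genes) and 1 was lower (2.61% of all genes). With quantile normalization 2 were higher (0.893% of all genes) and 1 was lower (2.47%). More than 2-fold higher were 0 of the 31 genes (background 0.271%) and more than 2-fold lower was 1 (background 0.908%). The median log2 difference was 0.04, and it was 0 over all genes. This comparison shares the WT colitis array with the one before it, so the values of that array enter both.

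Fads2 had a log2 signal of 9.70 in IL-4Rα-/- colitis and 8.70 in WT colitis, a difference of 1.00, and 55 genes, itself included, were at least as far up. Scd1 had 7.84 in IL-4Rα-/- colitis and 9.18 in WT colitis, 2.53-fold lower, and 89 genes, itself included, were at least as far down. These were the largest differences of the 31 genes in either direction. Acly had 7.81 and 7.23, 1.49-fold higher, and Scd2 had 11.14 and 10.61, 1.44-fold higher. Among the sterol genes Dhcr7 had the largest difference, with 7.68 in IL-4Rα-/- colitis and 7.27 in WT colitis, followed by Hmgcs1 with 8.46 and 8.08, Tm7sf2 with 5.99 and 5.63 and Sqle with 7.83 and 7.49. All 4 were higher in the IL-4Rα-/- colitis pool but within 1.5-fold, at 1.33-fold, 1.30-fold, 1.28-fold and 1.27-fold. Nsdhl (0.32), Fdps (0.25) and Fasn (0.21) also had log2 differences above 0.2. Lower, besides Scd1, were Me1 (6.12 in IL-4Rα-/- colitis and 6.68 in WT colitis), Fads1 (7.30 and 7.49) and Elovl6 (8.64 and 8.79). By role, the median log2 difference was 0.04 over the mevalonate pathway, 0.14 from squalene to cholesterol, 0.07 over the regulators and carriers, 0 over fatty acid synthesis and supply, and -0.07 over desaturases and elongases.

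Set against WT normal, IL-4Rα-/- colitis had lower signals for 25 of the 31 genes, or 80.6%, higher signals for 2 and the same for 4. Over all genes 17.9% were lower and 16.4% higher. The differences were small, and 0 of the 31 were more than 1.5-fold lower (background 0.813%) or higher (background 0.792%), with a range of -0.51 to 0.46 and a median of -0.29. The lowest were Pmvk (4.76 in IL-4Rα-/- colitis and 5.27 in WT normal), Lss (6.39 and 6.90) and Scd1 (7.84 and 8.35), each with a log2 difference of -0.51. Fdps (-0.49), Insig1 (-0.45) and Fasn (-0.45) came next. The higher ones were Me1 at 0.46 and Idi1 at 0.27. Fads2, the gene with the largest decrease in WT colitis, had 9.70 in IL-4Rα-/- colitis and 9.83 in WT normal, and Hmgcs1 had 8.46 and 8.50. Sterol genes were thus not alike in this respect, since Hmgcs1 was near its WT normal signal while Lss, Pmvk and Fdps were not. The contrast was smaller with the offset of 32, which gave -0.39 for Lss, -0.26 for Pmvk, -0.43 for Fdps and -0.04 for Hmgcs1. Both comparisons with WT normal rest on that 1 array, so whatever is particular to its pool enters both.

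**Figure D3:**
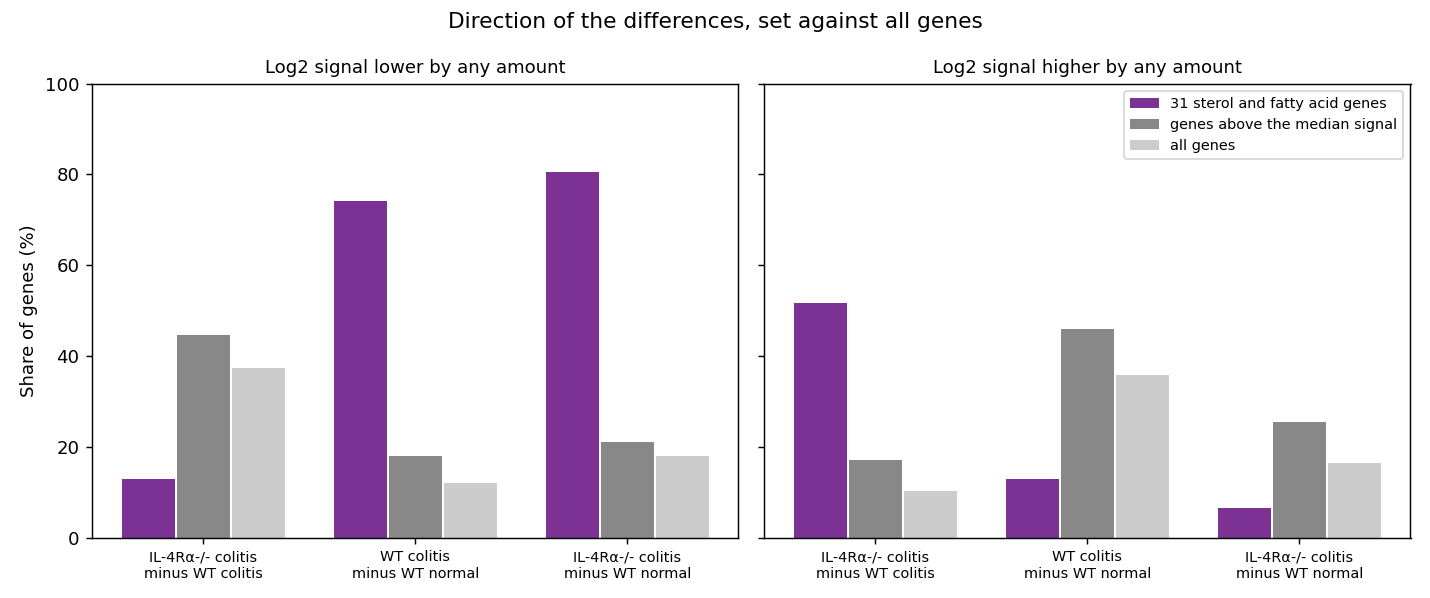
Share of genes (y axis, %) with a lower log2 signal (left panel) or a higher one (right panel) by any amount in each of the 3 comparisons, for the 31 sterol and fatty acid genes, for 9934 genes above the median signal and for all 19938 genes. The 31 genes have the highest bars for lower signals in WT colitis minus WT normal (74.2%) and in IL-4Rα-/- colitis minus WT normal (80.6%), and for higher signals in IL-4Rα-/- colitis minus WT colitis (51.6%).

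Equal values were common in the deposited table and limit what these counts can show. Of all genes, 45.8% had an identical value on the 3 arrays, against 3 of the 31 genes, Sc5d, Acacb and Elovl5. A value identical on both colitis arrays and different in WT normal was found for 8 of the 31 genes, or 25.8%, against 6.52% of all genes and 7.87% of genes above the median signal. They were Mvk, Pmvk, Idi1, Fdft1, Hsd17b7, Srebf1, Srebf2 and Acaca. A difference of 0 is therefore not read as no change. Quantile normalization, which breaks most ties, placed 27 of the 31 genes below the median difference of all genes in WT colitis minus WT normal. Of all genes 48.1% lay below it. In IL-4Rα-/- colitis minus WT colitis it placed 26 above that median (48.2% of all genes), and in IL-4Rα-/- colitis minus WT normal 28 below it (49.1%). These counts include genes with equal deposited values, which only the normalization set apart. For those genes the side of the median is not read as a direction.

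SREBPs bind sterol regulatory elements in the promoters of their targets, usually beside a CCAAT box bound by NF-Y. To describe their sequence, the promoters of the 31 genes were searched for both motifs on both strands. The motifs were TCACNCCAC for the sterol regulatory element and CCAAT for the box. A match on the opposite strand reads as its reverse complement. The 31 genes were chosen by name from these pathways, and a link between the motifs and the array differences was not tested. The RefSeq table (GRCm38.p6) held windows of 250 bases before to 50 after the start for 24 of the 31 genes. No window was available for Fdft1, Scd2, Fads1, Fdps, Stard4, Scd1 and Sqle. CCAAT was present for 21 of these 24 genes, or 87.5%, against 41.1% of all genes and 42.0% of array genes above the median signal. It was in 22 of their 30 windows, or 73.3%. Of all 32851 promoter windows of the same length, 37.4% held it, and of windows of array genes above the median signal 36.5% did. TCACNCCAC was found in 1 of the 30 windows, that of Hmgcs1, and in 1.24% of all windows. A match is a run of letters and not a measured binding site. The stretches below end at the last base before the start and are written from 5′ to 3′ along the gene, with the matched letters in capitals. They show 1 promoter with both motifs, 1 with repeated CCAAT boxes, 3 of genes beyond 1.5-fold with CCAAT boxes, and that of Fads2, which holds neither.
Hmgcs1, chr13:119690101-119690350, plus strand: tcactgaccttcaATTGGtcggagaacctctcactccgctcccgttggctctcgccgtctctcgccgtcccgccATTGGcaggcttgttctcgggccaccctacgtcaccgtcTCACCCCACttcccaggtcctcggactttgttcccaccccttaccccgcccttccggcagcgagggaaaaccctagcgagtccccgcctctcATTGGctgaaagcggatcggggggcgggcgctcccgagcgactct
Mvk, chr5:114444069-114444268, plus strand: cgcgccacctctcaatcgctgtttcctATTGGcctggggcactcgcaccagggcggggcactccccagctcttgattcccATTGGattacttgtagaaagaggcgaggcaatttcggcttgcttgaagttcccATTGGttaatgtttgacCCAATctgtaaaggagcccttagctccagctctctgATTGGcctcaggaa
Lss, chr10:76531485-76531604, plus strand: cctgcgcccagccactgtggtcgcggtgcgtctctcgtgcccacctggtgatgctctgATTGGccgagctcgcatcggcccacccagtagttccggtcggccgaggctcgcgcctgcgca
Nsdhl, chrX:72918401-72918520, plus strand: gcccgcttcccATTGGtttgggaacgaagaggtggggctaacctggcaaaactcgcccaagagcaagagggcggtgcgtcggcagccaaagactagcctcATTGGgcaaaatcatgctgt
Fasn, chr11:120824548-120824667, minus strand: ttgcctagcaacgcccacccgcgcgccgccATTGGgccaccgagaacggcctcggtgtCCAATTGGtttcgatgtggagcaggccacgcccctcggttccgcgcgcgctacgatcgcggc
Fads2, chr19:10101504-10101623, minus strand: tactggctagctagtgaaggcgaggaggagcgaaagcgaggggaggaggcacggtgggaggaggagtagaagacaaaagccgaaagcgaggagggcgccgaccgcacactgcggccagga

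In the Hmgcs1 promoter the sterol regulatory element type match began 137 bases before the start, between CCAAT matches at 176 and 45 bases. In Mvk 5 CCAAT matches began at 173, 120, 67, 50 and 14 bases before the start. In Fasn 2 of the 3 matches, at 62 and 59 bases, overlap on opposite strands. Fads2, Acaca and Elovl6 were the genes without CCAAT in the window. These 3 had log2 differences of -1.13, -0.15 and 0.10 in WT colitis minus WT normal. Among the genes with CCAAT, Me1 (1.02) and Idi1 (0.27) were higher, Sc5d, Acacb and Elovl5 had equal values, and the others were lower. Size and direction thus differed both among genes without the motif and among genes with it.

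Of 7 measured further genes of sterol synthesis and SREBP control, 6 were higher by any amount in WT colitis minus WT normal and 1 was lower, with a median log2 difference of 0.15, while the 31 genes had 4 higher and 23 lower. Of the same 7 genes, 1 was higher and 6 were lower in IL-4Rα-/- colitis minus WT colitis. These differences were small, since 0 of the 7 were more than 1.5-fold higher or lower in any comparison, and that of Mbtps1, a protease that cleaves SREBPs, changed sign in both comparisons with the array medians aligned. Msmo1, a sterol methyl oxidase acting after Cyp51, had a log2 signal of 8.55 in IL-4Rα-/- colitis, 8.32 in WT colitis and 8.65 in WT normal. The sterol reductase and lamin receptor Lbr had 7.22, 7.47 and 7.16 on the same arrays, and Ggps1, which leads from the mevalonate pathway to geranylgeranyl diphosphate, had 5.94, 6.16 and 5.94. Both were thus highest in WT colitis, unlike Msmo1. Idi2 lay below a log2 signal of 4 on every array. Of 4 measured genes of cytosolic NADPH supply 0 passed 1.5-fold in IL-4Rα-/- colitis minus WT colitis or in WT colitis minus WT normal, and 1 was higher in IL-4Rα-/- colitis minus WT normal. Idh1, cytosolic isocitrate dehydrogenase, had 9.19 in IL-4Rα-/- colitis, 8.66 in WT colitis and 8.42 in WT normal.

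Of 23 measured further genes of fatty acid synthesis, 3 were more than 1.5-fold higher and 1 lower in WT colitis relative to WT normal. The lower one was Acss2, acetyl-CoA synthetase, which like Acly makes cytosolic acetyl-CoA, with 7.54 in IL-4Rα-/- colitis, 7.09 in WT colitis and 7.97 in WT normal. The 3 higher ones were Scd3, Elovl4 and Elovl3. Scd3, a desaturase of the Scd family known from mouse skin, had 2.71 in IL-4Rα-/- colitis, 4.95 in WT colitis and 2.45 in WT normal. Elovl4, which makes very long chain fatty acids, had 3.12, 5.55 and 3.35. Elovl3, an elongase of skin and sebaceous glands, had 2.29, 3.38 and 2.29. In IL-4Rα-/- colitis and WT normal all 3 were near background, so no fold is given. Scd1 and Scd3 are close copies of each other, and whether their probes tell them apart was not tested.

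**Figure D4:**
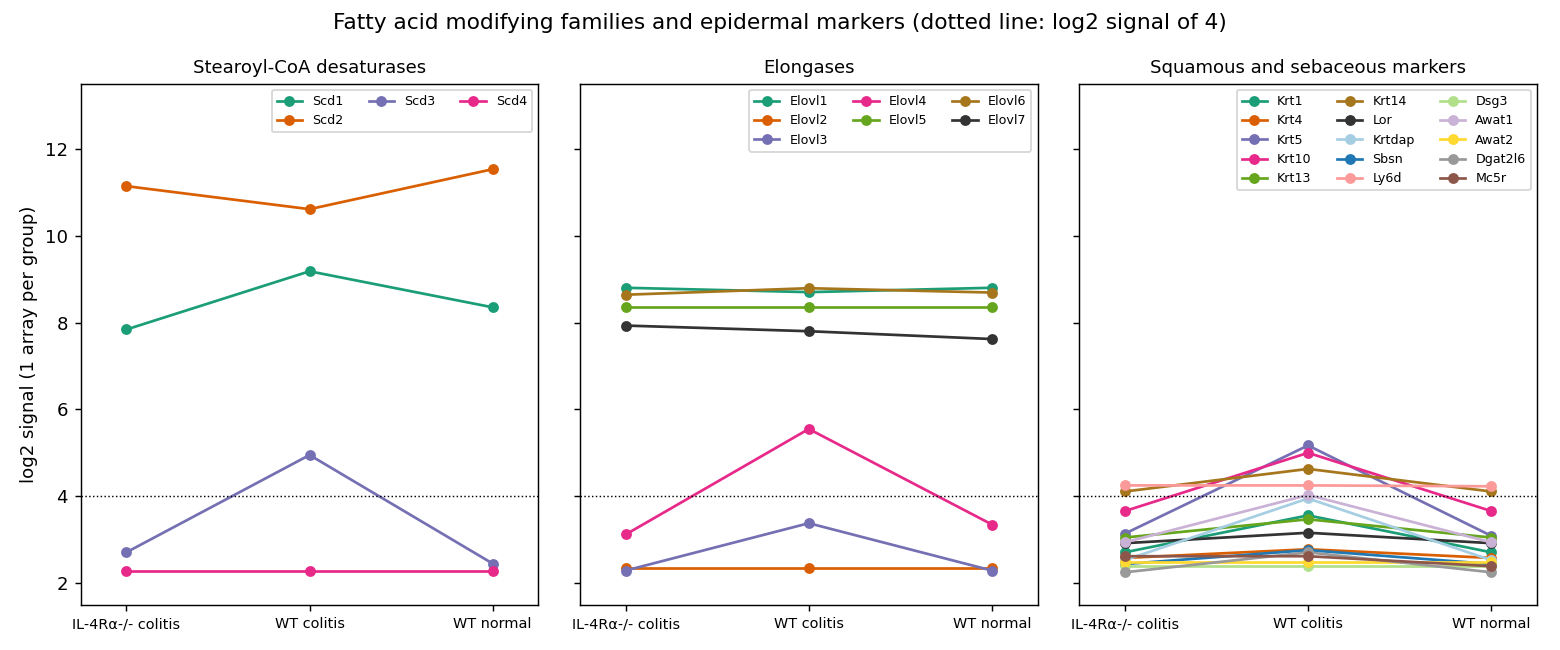
Log2 signal (y axis) of the 4 stearoyl-CoA desaturases, the 7 elongases and all 15 squamous and sebaceous markers on the IL-4Rα-/- colitis, WT colitis and WT normal arrays, where each point is 1 array, each line connects 1 gene, and a dotted line stands at a log2 signal of 4. Scd1 (7.84, 9.18 and 8.35), Scd3 (2.71, 4.95 and 2.45) and Elovl4 (3.12, 5.55 and 3.35) have their highest point in WT colitis, as does Krt5 (3.14, 5.17 and 3.09), while Scd2 has its lowest there.

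Markers of other cell types moved with some of these genes. Of 15 markers of squamous epithelium and sebaceous glands, 5 were more than 1.5-fold higher in WT colitis relative to WT normal and 0 lower, and 5 were more than 1.5-fold lower in IL-4Rα-/- colitis relative to WT colitis. Krt5, a keratin of basal squamous cells, had 3.14 in IL-4Rα-/- colitis, 5.17 in WT colitis and 3.09 in WT normal, and Krtdap and Krt10, of differentiating squamous cells, had 2.53, 3.95 and 2.53, and 3.66, 5.0 and 3.66. The log2 of the list's summed signal was 6.99, 7.73 and 6.97 in the same order, and 13, 10 and 13 of the 15 lay below a log2 signal of 4. These levels moved with those of Scd1, Scd3 and Elovl4, and their part in them was not tested.

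Adipocytes are rich in the enzymes of fatty acid synthesis. Of 12 measured adipocyte markers, 1 was more than 1.5-fold higher and 3 were lower in WT colitis relative to WT normal, and 0 were higher and 2 lower in IL-4Rα-/- colitis relative to WT colitis. In IL-4Rα-/- colitis minus WT normal, where 25 of the 31 genes were lower by any amount, 8 of the 12 were lower by any amount, 5 of them by more than 1.5-fold, and 0 were more than 1.5-fold higher. The log2 of their summed signal was 10.04 in IL-4Rα-/- colitis, 10.38 in WT colitis and 10.54 in WT normal. Adipoq, adiponectin, was below a log2 signal of 4 on all arrays (3.26, 3.32 and 3.90), and leptin (Lep) had 2.35 on each. Plin1 had 3.44, 3.44 and 4.03, above 4 in WT normal alone. Adipoq and Plin1 were thus highest in WT normal. Adipoq, Lep and Plin1 were picked after their values were seen. Lpl, lipoprotein lipase, had 5.72 in IL-4Rα-/- colitis, 7.44 in WT colitis and 5.72 in WT normal, and Fabp4 had its highest value in WT colitis as well, with 5.59, 6.14 and 5.82. Retn had 4.45, 5.11 and 5.08, and which of WT colitis and WT normal was higher depended on the scaling, with a log2 difference of 0.03 as deposited and -0.04 with the array medians aligned. Cidec and Car3, which were picked after their values were seen, had their highest value in WT normal (5.02, 5.10 and 5.95, and 6.50, 6.85 and 8.83). The part of fat tissue in the levels of Acly, Fasn and Scd2 was not tested.

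Colonic epithelium itself was represented on all arrays. Of its 13 measured markers 2 passed 1.5-fold on the lower side in WT colitis relative to WT normal and 0 on the higher side, and the median log2 difference was -0.11, against -0.33 for the 31 genes. By any amount 7 of the 13 were lower and 6 higher, against 12.0% and 35.8% of all genes. Their log2 differences ran from -1.56 to 0.42, so the list did not move in 1 direction. The 2 beyond 1.5-fold were markers of absorptive colonocytes. Aqp8, a water channel, had 9.67 in IL-4Rα-/- colitis, 8.03 in WT colitis and 9.59 in WT normal, and Slc26a3, a chloride exchanger, had 10.01, 9.05 and 10.11. Car4, a carbonic anhydrase, had 11.39, 11.05 and 11.45. All 3 were lowest in WT colitis, as Fads2 was. Other epithelial genes of the list, picked after their values were seen, were within 1.5-fold between WT colitis and WT normal. Epcam differed by 0.09, Krt8 by -0.11, Car1 by -0.13, Krt20 by 0.17 and Cdh17 by 0.20. Lower signals in WT colitis were thus not shared by all colonocyte genes of the list. The part of the cells that express Aqp8, Slc26a3 and Car4 in the lower sterol and fatty acid signals was not tested.

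Of 7 measured leukocyte markers 1 was more than 1.5-fold higher in WT colitis relative to WT normal and 0 lower, and of 5 fibroblast markers 3 were higher and 0 lower. Itgam, an integrin of myeloid cells, had 4.43 in IL-4Rα-/- colitis, 5.25 in WT colitis and 4.43 in WT normal, and the fibroblast proteoglycan Dcn had 9.49, 10.76 and 9.49. Of 4 measured proliferation markers 0 passed 1.5-fold in any comparison, and Top2a had 6.47, 6.05 and 5.99. The WT normal array stood apart by genes of the exocrine pancreas, with all 5 measured markers more than 2-fold lower on both colitis arrays. The log2 of their summed signal was 5.31 in IL-4Rα-/- colitis, 5.47 in WT colitis and 11.10 in WT normal. The part of this pancreatic signal in the WT normal values of the 31 genes was not tested.

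Genes that handle finished sterols and fatty acids differed among themselves. Of 14 measured genes of sterol efflux, storage and uptake, 1 was more than 1.5-fold higher and 4 were lower in IL-4Rα-/- colitis relative to WT colitis, and 1 was higher and 1 lower in WT colitis relative to WT normal. Abca1, the cholesterol efflux pump induced when sterols are plentiful, had 5.62 in IL-4Rα-/- colitis, 6.59 in WT colitis and 5.54 in WT normal. Apoe, a lipoprotein component made largely by macrophages in tissues, had 8.90, 9.57 and 8.99. Both were highest in WT colitis, where 23 of the 31 genes were lower than in WT normal. Whether their levels are linked to those of the 31 genes was not tested. Ch25h, which makes 25-hydroxycholesterol, an inhibitor of SREBP processing, had 4.09 in IL-4Rα-/- colitis, 5.30 in WT colitis and 6.05 in WT normal. Abcg5, a subunit of the plant sterol exporter, had 4.63, 3.90 and 4.18, close to background.

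Of 17 measured genes of fatty acid oxidation and ketogenesis, 2 were more than 1.5-fold higher in WT colitis relative to WT normal and 0 lower, with a median log2 difference of 0.12. Angptl4, an inhibitor of lipoprotein lipase, had 3.75 in IL-4Rα-/- colitis, 4.99 in WT colitis and 3.75 in WT normal. Pdk4, which keeps pyruvate from becoming acetyl-CoA, had 5.82, 6.61 and 6.42, and the fatty acid transporter Cd36 had 4.52, 5.06 and 4.52. These 3 were highest in WT colitis. Ehhadh, a peroxisomal oxidation enzyme, had 6.22, 5.80 and 6.22 and was lowest there. The other gene beyond 1.5-fold in WT colitis was Acadl, long-chain acyl-CoA dehydrogenase, named after its values were seen, with 8.56 in IL-4Rα-/- colitis, 8.67 in WT colitis and 7.80 in WT normal.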

How the data were processed

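Colonic RNA of 3 pools was hybridised to 1 array each. Per the methods, the array was a GeneChip Mouse Gene 1.0 ST read with Affymetrix software, while the labels name a Cy3 labelling kit of another maker. The probe set numbers matched the annotation of the GeneChip. The deposited table holds log2 signals, to 2 decimals, of 28944 probe sets. How the authors summarised and normalized them was not stated in the labels or methods, nor how the many equal values came about.

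Of the probe sets, 21789 had 1 gene symbol, 1621 several and 5534 none here. A RefSeq gene was matched for 21698 of the 21789. A gene with several probe sets was represented by the one with the highest mean. Log2 differences were taken between arrays, and genes beyond 1.5-fold were counted beside the count over all genes. No test was run, since there was 1 array per group. The named genes are the 6 largest increases and decreases among the 31 genes in each comparison, all of them beyond 1.5-fold, up to 4 genes of each other pathway list and up to 3 of each marker list by their difference between the colitis arrays. Values of the remaining members of the 31 were added outside this rule after they were seen. So were those of Adipoq, Lep, Plin1, Cidec, Car3, Epcam, Krt8, Car1, Krt20, Cdh17, Acadl and Mbtps1. The 31 genes, the lists and the rule were chosen with earlier results of these data known. Lists with no gene named here (smooth muscle, glia) had 0 of 5 and 0 of 4 genes beyond 1.5-fold in any comparison. The alternatives were quantile normalization, aligned array medians, an offset of 32 on the linear scale, genes above the median signal, averaging the probe sets of each gene, and other thresholds. The counting was tested on simulated data. The work used Python 3.11.15, numpy 2.4.6, pandas 2.3.3 and matplotlib 3.10.9.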

Additional observations from a re-analysis of the deposited data

Results flagged for a closer look

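In the pooled mice of IL-4Rα-/- colitis, 1 of 6 had a disease activity index of 3, which stood apart from the other 5 at 0 to 1. Its gap to the next mouse was 0.667 of the whole range. The critical value used, Dixon's at 95%, is one that about 1 in 20 groups passes by chance, for continuous values, whereas these are whole-number scores with ties. This mouse cannot be separated from the others in the array signals.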

How the results depend on the processing

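The median log2 difference of the 31 genes kept its sign in each comparison under quantile normalization, aligned medians, the offset of 32 and the mean of probe sets. It ran from 0.033 to 0.14 in IL-4Rα-/- colitis minus WT colitis and from -0.44 to -0.26 in WT colitis minus WT normal. In IL-4Rα-/- colitis minus WT normal it ran from -0.29 to -0.22. Taking only genes above the median signal could not change these medians, since all 31 are among those genes. In IL-4Rα-/- colitis minus WT colitis, the number more than 1.5-fold higher was 1 as deposited, 2 with quantile normalization and 3 with aligned medians. At a 2-fold threshold it was 0, and with no threshold 16 were higher and 4 lower. In WT colitis minus WT normal, the 2 higher and 9 lower genes became 1 and 1 at 2-fold, and 4 and 23 with no threshold. The 9 became 12 with quantile normalization (1.41% of all genes), 11 with aligned medians (1.36%) and 6 with the offset of 32 (0.667%). The offset ended the calls of Lss, Fasn and Nsdhl. In IL-4Rα-/- colitis minus WT normal, the 0 genes on either side became 2 higher and 25 lower with no threshold. None of the 31 genes reversed its sign under the settings run, but small differences of other genes did with quantile normalization, among them Retn (-0.08) and Top2a (-0.06) in WT colitis minus WT normal and Krt8 (0.02) and Cidec (0.01) in IL-4Rα-/- colitis minus WT colitis. The offset of 32 moved 7 of 54 values of named genes by more than the robust spread of the differences, and the mean of probe sets moved 2, both of Me1. That spread was taken over the 10805 genes whose values were not equal on all 3 arrays. No paired analysis was possible because each group has 1 array and the labels carry no replicate numbers.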
